A study of Carica papaya with 7 samples.

Results

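The plastid genome of most land plants carries a large inverted repeat, a stretch present in a pair of copies that face each other. In papaya its protein genes include rpl2 and rpl23, for proteins of the large subunit of the plastid ribosome, ndhB, for a subunit of the chloroplast NADH dehydrogenase-like (NDH) complex, and rps7, for a protein of the small ribosomal subunit. The transcript of rps12, for another small subunit protein, is joined in trans from separately transcribed parts, and the later exons lie in the repeat. Plastid ribosomal proteins are needed to translate plastid messages, and the NDH complex passes electrons around photosystem I. During ripening of a fleshy fruit, the chloroplasts of green pulp become chromoplasts, which store carotenoids.

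The values described here are those of 6 probe-sets for these 5 genes, out of 22746 probe-sets of the Arabidopsis ATH1 GeneChip that are not controls. They are a list of probe-set identifiers, drawn up with results of these data known: 1 each for rpl2, rpl23, ndhB and rps7, and a pair for rps12, called the bright and the dim rps12 probe-set below. The platform annotation gives each of them 1 symbol, and for every one it lists a pair of Gene IDs under that symbol. For rpl2, rpl23, ndhB and rps7 the copies of the repeat therefore cannot be read separately. What the pair of Gene IDs stands for in rps12 was not examined. RNA came from pulp of papaya cultivar 'Golden' at 2 stages, unripe and ripe, with 3 columns of signals per stage and no treatment named. Each sample held pulp of 12 fruits without peel and seeds, picked at colour break around 150 days after anthesis. Ripe fruit had ripened after harvest. The paper took the replicates of each stage from harvests of different years. The deposited values do not show which harvest they come from. Signals of genomic DNA were not analysed here for any probe-set.

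Columns of the same stage were not independent. In both stages replicate 2 was replicate 1 times 1.19, and replicate 3 was the mean of both (tolerance 0.0011 in signal). Each stage thus counts as 1 sample, and no difference below has a replicate check, an SD or a p-value. Signals are RMA values (background-corrected, normalised summaries of the probes of a probe-set) on a linear scale, and a difference is ripe minus unripe, taken between means of log2 columns. A fold threshold is used for description only and amounts to a log2 difference of 0.32. The median difference over all 22746 probe-sets was -0.0047. The 27 Bacillus subtilis control probe-sets, which match no plant gene, reached at most 8.24 and differed between the stages by -0.28 to 0.12. The bioB, bioC and bioD hybridization controls had a median difference of -0.60 and the cre controls one of -0.053. Scaling to the former takes the median of all probe-sets to 0.60, so that directions below hold relative to the table as deposited, unless another scaling is named. Of 11 marker genes of seed, epidermis and green tissue, 1 was matched to a probe-set, LHCB4.1, a light-harvesting protein gene. Its signals, 4.75 unripe and 3.85 ripe, were below the brightest bacterial control. The other markers could not be matched by symbol or locus. In pulp RNA, fewer plastids, fewer cells that hold them and less RNA per plastid cannot be told apart. Nor can a difference in how well plastid RNA was copied and labelled for the array, which was not tested.

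Past the fold threshold, 2 of the 6 probe-sets (rpl2 and rpl23) were lower in ripe pulp and 1 (ndhB) was higher, beside 3.53% lower and 3.57% higher of all probe-sets. Of the 1702 probe-sets brighter than the bacterial controls in both stages, which include 5 of the 6, 6.99% were lower and 6.05% higher. The range of the members was the whole range of the array: rpl23 had the lowest of the 22746 differences and ndhB the highest. Their median difference was -0.23, beside -0.26 for the other 71 probe-sets of plastid genes. Of those 71, 33 were lower and 4 higher past the threshold, so lower signals were also common among plastid genes outside the list. Under scaling to bioB, bioC and bioD the members had a median of 0.38 and the other plastid probe-sets one of 0.34, and after quantile normalization these medians were 0.047 and -0.15.

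**Figure D1:**
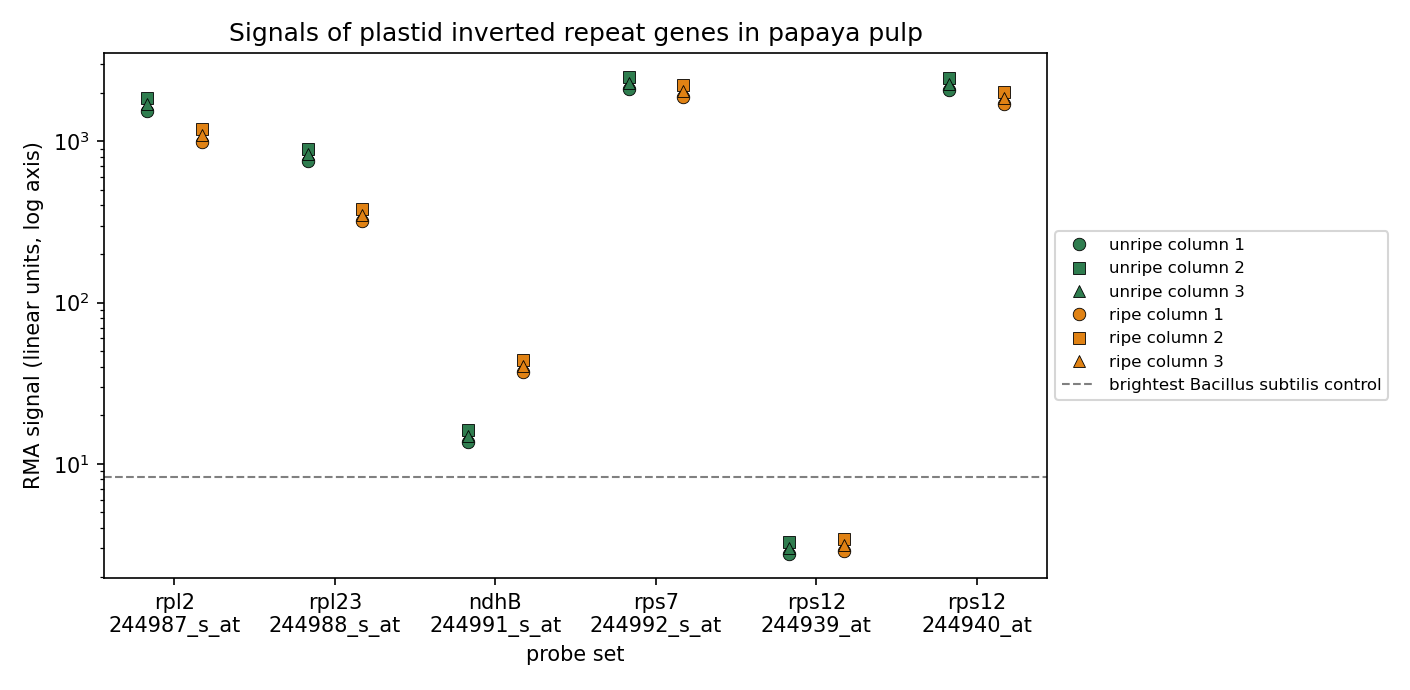
RMA signals (linear units on a log axis) of the 6 probe-sets in each deposited column, 3 unripe and 3 ripe; the dashed line is the brightest Bacillus subtilis control at 8.24. The ribosomal protein genes rpl2, rpl23, rps7 and the bright rps12 probe-set lie far above the line, ndhB lies nearer to it and is higher in ripe pulp, and the other rps12 probe-set lies below it in every column.

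The gene rpl2 encodes a protein at the core of the large ribosomal subunit. Its signals were 1546, 1840 and 1693 in unripe replicates 1, 2 and 3, and 996, 1185 and 1090 in ripe replicates 1, 2 and 3. All ripe columns were below all unripe columns. The log2 difference was -0.64, or 1.55 fold lower in ripe pulp. The value depended on the scaling, and was -0.29 after quantile normalization and -0.031 with scaling to bioB, bioC and bioD, both within the threshold. With scaling to cre it was -0.58, past the threshold.

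The next gene of the repeat, rpl23, encodes a large subunit protein that lies, in bacterial ribosomes, at the exit of the peptide tunnel. Its signals were 757, 901 and 829 in the unripe columns and 318, 379 and 348 in the ripe columns. The stages did not overlap, and the lowest unripe signal was well above the highest ripe one. The log2 difference of -1.25, or 2.38 fold, was the lowest on the array. Of the alternatives tried, only quantile normalization and adding 16 to each signal can alter such a rank. It was still the lowest with 16 added, and the 53rd lowest after quantile normalization, where it was -0.59. Scaled to bioB, bioC and bioD it was -0.65. In each of the 13 alternatives rpl23 was lower past the threshold, the only one of the 6 probe-sets for which this was so. Not all of these are separate checks. Leaving out a given column shifts all probe-sets alike by a fixed amount. The alternatives with no floor and with mean linear signals gave the same value as deposited.

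The gene ndhB encodes a membrane subunit of the NDH complex. Its signals were 13.7, 16.2 and 15.0 in the unripe columns and 37.0, 44.0 and 40.5 in the ripe columns, so that all ripe columns were above all unripe ones. The log2 difference was 1.44, or 2.71 fold higher in ripe pulp, the highest of all probe-sets. It stayed higher past the threshold in each of the 13 alternatives, at 0.87 with 16 added to each signal and at 2.04 with bioB, bioC and bioD as the scale. Under quantile normalization and with 16 added it was the 2nd highest. As for rpl23, not all of the alternatives are separate checks. Unlike the bright ribosomal protein probe-sets, ndhB was dim in unripe pulp, at less than 2 times the brightest bacterial control, and it stood at place 387 by signal there and at place 61 in ripe pulp. Places by signal describe these arrays and not transcript abundance. Brightness also depends on how well Arabidopsis probes match papaya and on how well the RNA was copied and labelled.

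The small subunit gene rps7, next to ndhB, had the brightest probe-set of the array in both stages, controls left out. Unripe columns gave 2106, 2506 and 2306, and ripe columns 1876, 2233 and 2054. The columns of both stages overlapped. The log2 difference of -0.17, or 1.12 fold, was within the range of the bacterial controls. These controls are far dimmer, so their range does not measure variation at the brightness of rps7. The sign for rps7 was the opposite after quantile normalization, at 0.093, and with scaling to bioB, bioC and bioD, at 0.44. No direction is therefore given for rps7.

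The protein of rps12 is part of the decoding centre of the small subunit. The bright rps12 probe-set gave 2066, 2459 and 2263 in the unripe columns and 1689, 2010 and 1850 in the ripe columns, the second brightest on the array in both stages. The ripe columns were below the unripe columns, though the highest ripe signal of 2010 was close to the lowest unripe signal of 2066. The log2 difference was -0.29, or 1.22 fold. It was 0.017 after quantile normalization and 0.31 with bioB, bioC and bioD as the scale, and past the threshold without unripe replicate 1, at -0.35, or without ripe replicate 2, at -0.35. The dim rps12 probe-set gave 2.75, 3.28 and 3.02 in the unripe columns and 2.87, 3.42 and 3.14 in the ripe ones. These were below the brightest bacterial control in every column, and the difference of 0.060 (1.04 fold) is between signals that cannot be told from that background. The annotation used here does not say which exons of rps12 each probe-set covers.

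Ripe columns did not overlap with unripe columns for 4 of the 6 probe-sets, with 3 lower (rpl2, rpl23 and the bright rps12) and 1 higher (ndhB). The same was found for 7.47% of all probe-sets as lower and 7.04% as higher. Since the columns of a stage differ only by a constant factor, such a separation says only that the difference exceeds this factor. The signals of rps7, the bright rps12 and rpl2 held places 1, 2 and 3 among all probe-sets in unripe pulp, and places 1, 2 and 4 in ripe pulp. The place of rpl23 was 6 in unripe and 11 in ripe pulp. The lower signals of rpl2 and rpl23 in ripe pulp were thus found in probe-sets that stayed among the brightest of the array.

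Differences between members within the same arrays do not move when a whole column is rescaled. Only quantile normalization and adding 16 to each signal could therefore move them by more than rounding. Of the 15 pairs of probe-sets, 14 kept their order under both, and the order of rps7 and the dim rps12 probe-set was the opposite after quantile normalization. The difference of rpl2 was above that of rpl23 by 0.62 (0.30 to 0.62 over the alternatives). Against rps7, rpl23 stood at -1.08 (-1.08 to -0.68) and rpl2 at -0.47 (-0.47 to -0.38). For the bright rps12 probe-set and rps7, the gap was smaller, at 0.12 (0.076 to 0.12), which is below the threshold of 0.32. The order of the differences from the lowest was rpl23, rpl2, the bright rps12, rps7, the dim rps12 and ndhB.

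**Figure D2:**
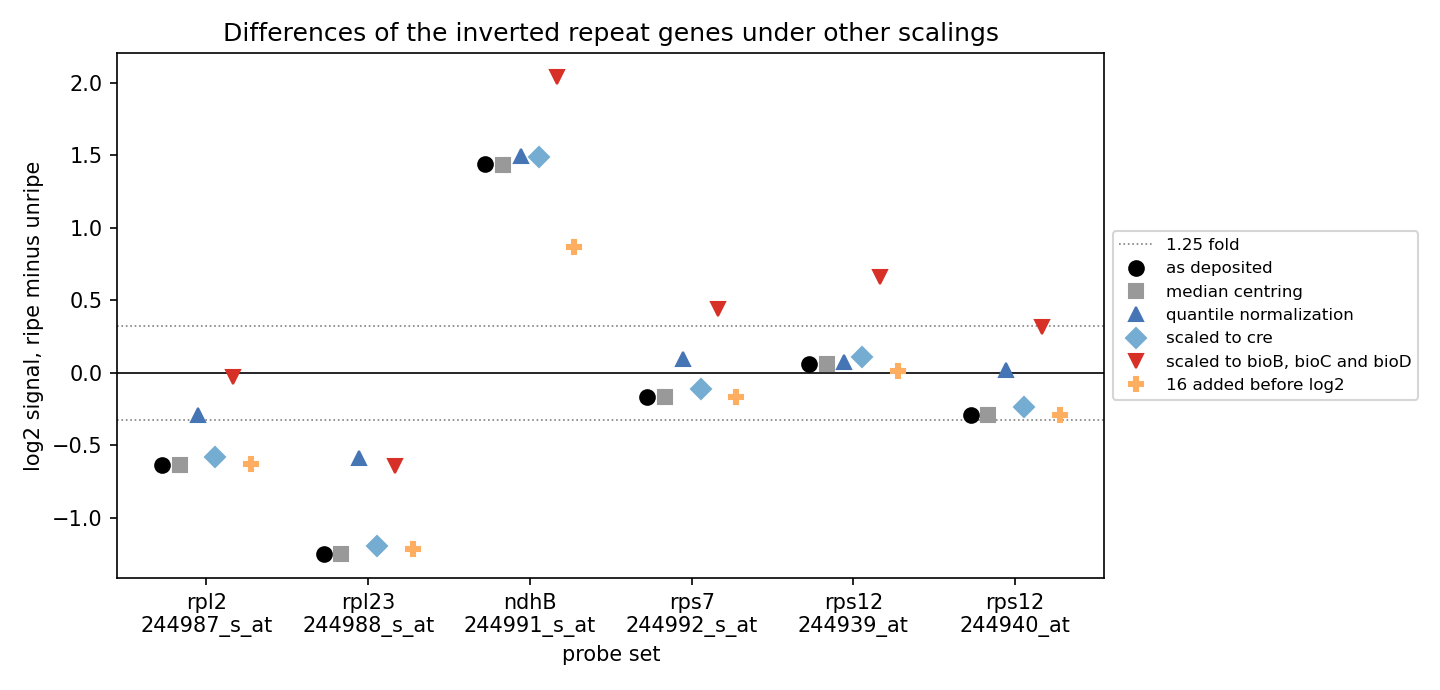
Log2 signal of ripe minus unripe pulp for the 6 probe-sets, as deposited and under 5 other scalings; dotted lines mark the fold threshold, and of the rps12 pair the dim probe-set is on the left. Only rpl23 and ndhB stay beyond the dotted line on the same side under every scaling shown, and rps7 and the bright rps12 lie on both sides of 0.

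The place of the genes in papaya was taken from the RefSeq annotation of assembly ASM5485532v1, used only for names and neighbours. In it the protein genes rpl2, rpl23, ycf2, ndhB and rps7 follow each other and are each listed in 2 copies. The gene rps12 is listed among the genes between rpl20 and clpP, outside the repeat. It also has 2 entries, both ahead of rpl2. Along the 75 protein genes in plastid order with a probe-set, rps12 left out, neighbours differed from each other by a median of 0.27 (74 pairs). For the 30 pairs with both genes above the bacterial controls, this median was 0.31. The step from ndhB to rps7, at 1.60, was the largest of the 74, and that from ycf2 to ndhB, at 1.52, was the second. The step from rpl23 to ycf2 was the fourth, at 1.17, and the one from rpl2 to rpl23 was 0.62. The large steps in the repeat involve ndhB and rpl23, and ycf2 lies between them. As ndhB and rpl23 have the highest and lowest differences of the array, large steps beside them are no separate result. These steps are descriptions of 1 set of values per stage.

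Genes around the members were not uniform either. The large gene ycf2, which is essential in tobacco, gave 9.68 unripe and 9.14 ripe, with a difference of -0.083, just above the bacterial controls. On the side of rpl2, the neighbours rps19 (3.50 and 2.90, -0.27) and rpl22 (4.79 and 3.38, -0.50) were dimmer than the bacterial controls, although they encode ribosomal proteins as rpl2 does. Farther along, rpl14 was brighter, with signals of 188 and 122 and a difference of -0.62, close to that of rpl2. On the other side, ndhF, the next protein gene after rps7, was at background, with 2.60 and 2.74. The gene ycf1, which encodes a protein linked to import into the chloroplast and borders the second copy of the repeat, gave 420 unripe and 266 ripe, with a difference of -0.66.

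**Figure D3:**
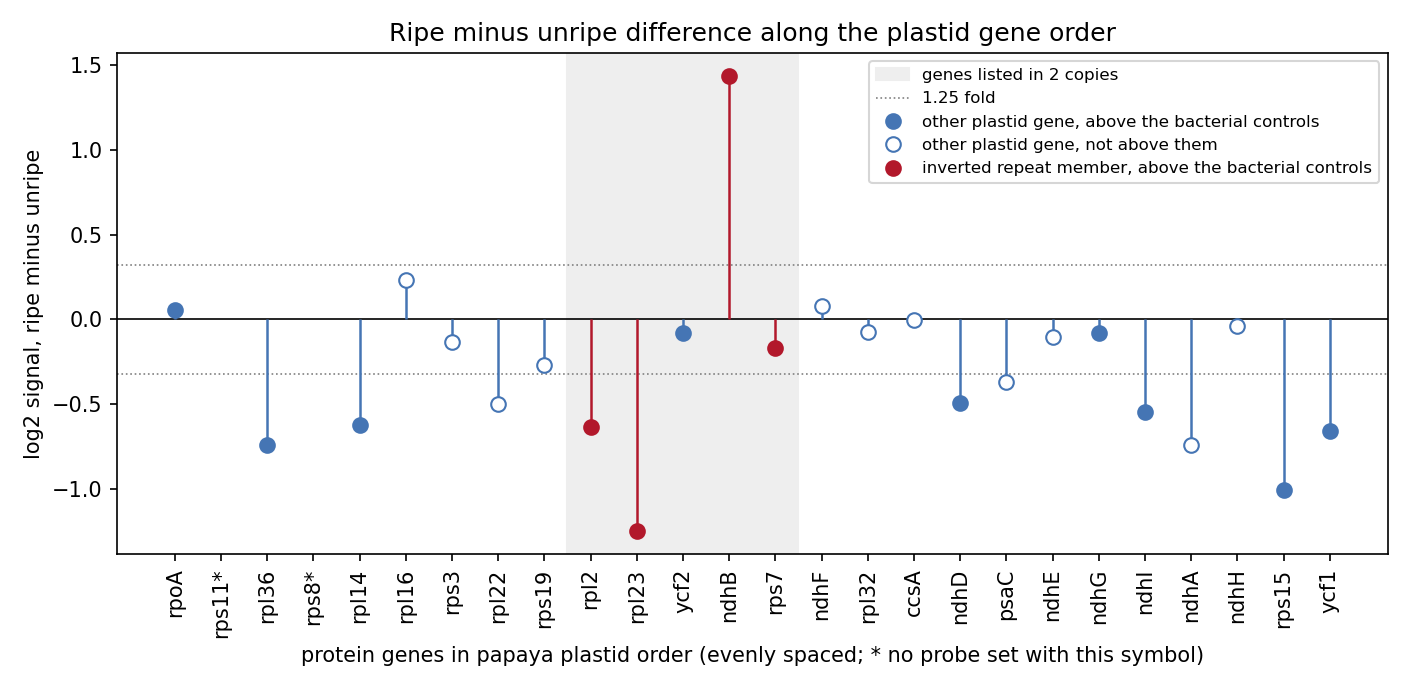
Log2 signal of ripe minus unripe pulp (vertical axis) for protein genes in papaya plastid order from rpoA to ycf1, evenly spaced; the grey band holds the genes listed in 2 copies, and open circles mark probe-sets not above the bacterial controls in both stages. Within the band the difference goes from -1.25 at rpl23 to -0.083 at ycf2, 1.44 at ndhB and -0.17 at rps7.

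Other plastid genes of the same complexes gave a setting for the members. Of the 8 other probe-sets of the small ribosomal subunit, 3 were lower past the threshold and 1 was higher, with a median difference of -0.20, while 5 would be higher and 1 lower with bioB, bioC and bioD as the scale. The lowest was rps15 at -1.01 (16.6 and 8.25, the ripe signal barely above the bacterial controls), followed by rps2 at -0.40 (683 and 518). The highest were rps14 at 0.37, from signals of 4.16 and 5.40 below the bacterial controls, and rps4 at 0.21 (13.3 and 15.4). The member rps7 was the median of this list of 11 probe-sets, members included. Without unripe replicate 1 or without ripe replicate 2, 0 others of the small subunit were higher past the threshold and 4 were lower. With 16 added, 0 were higher and 2 lower, with a median of -0.033, and after quantile normalization 2 were higher and 2 lower.

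Of the 7 other genes of the large subunit, 4 were lower past the threshold and 0 higher, with a median of -0.37. With bioB, bioC and bioD as the scale 3 were higher and 0 lower, and with 16 added 2 were lower and 0 higher, with a median of -0.10. After rpl23, the lowest in this list was rpl36, at -0.74 (49.0 and 29.3), and rpl2 came behind it. At the other end were rpl16, at 0.23 (3.89 and 4.56), and rpl32, at -0.074 (2.34 and 2.23), both dimmer than the bacterial controls.

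Among the NDH genes as deposited, ndhB alone was higher past the threshold. Of the 10 other genes of the complex on the array, 6 were lower past the threshold and 0 higher, with a median of -0.52. Scaled to bioB, bioC and bioD, 4 of them were higher and 0 lower, with a median of 0.084, against 2.04 for ndhB. The lowest were ndhA, at -0.74 (7.85 and 4.70), and ndhJ, at -0.68 (10.2 and 6.39), neither above the bacterial controls in both stages. Next to ndhB from the top came ndhF, at 0.077 and below the bacterial controls. With 16 added, 1 was lower and 0 higher, with a median of -0.20, against 0.87 for ndhB. Compared with all 71 other plastid probe-sets, of which 33 were lower and 4 higher past the threshold, ndhB was also above the highest, the photosystem II gene psbB at 0.68, which was not above the bacterial controls in unripe pulp. Without unripe replicate 1 or ripe replicate 2, 37 were lower and 2 higher, and scaled to bioB, bioC and bioD 4 were lower and 37 higher. With 16 added, 20 were lower and 0 higher, and their median was -0.10.

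**Figure D4:**
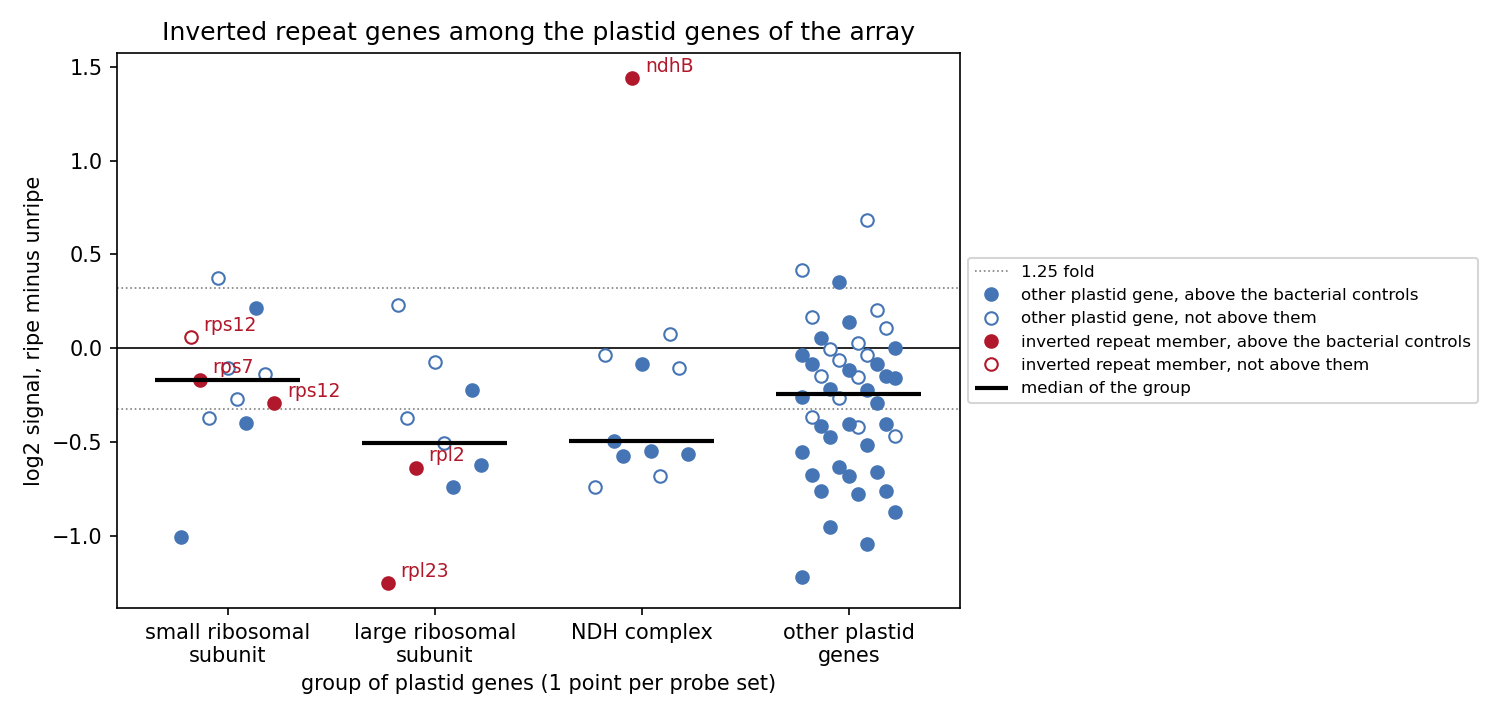
Log2 signal of ripe minus unripe pulp for every plastid probe-set with 1 symbol, grouped as small ribosomal subunit, large ribosomal subunit, NDH complex and other plastid genes, with black bars at group medians; members of the inverted repeat are named. Filled circles are brighter than the bacterial controls in both stages. The circle of ndhB, at 1.44, lies above all other plastid probe-sets, and that of rpl23, at -1.25, below all others.

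The plastid genes with the most similar differences were looked up among the 42 other plastid probe-sets brighter than the bacterial controls in both stages. With 2 conditions, likeness comes down to the distance between the differences. For rpl23 they were psbD, of the photosystem II core (-1.22), and the ATP synthase gene atpE (-1.04). For rpl2 they were psaA, of photosystem I (-0.63), and rpl14 (-0.62), and for the bright rps12 probe-set the RNA polymerase gene rpoC2 (-0.29) and psbA (-0.26), of photosystem II. For rps7 they were petL (-0.16) and petB (-0.15), both of the cytochrome b6f complex. The dim rps12 probe-set was nearest to rpoA (0.057) and psaI (0.0019). Its own signals were below the brightest bacterial control, so no likeness is read from this. None of the 42 came near ndhB: the closest were accD, for a subunit of acetyl-CoA carboxylase, at 0.35, and rps4 at 0.21, which are 1.08 and 1.22 away. Outside the 42, psbB (0.68), rbcL (0.41) and rps14 (0.37) were closer to ndhB, but none was above the bacterial controls in both stages.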

How the data were processed

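Pulp RNA of 2 stages was copied into cDNA, transcribed into labelled RNA and hybridized to ATH1 arrays. The paper does not name the primer of the first cDNA strand. The authors applied RMA in GeneSpring to files filtered by the papaya genomic DNA signal of each probe. The deposited intensity values are linear RMA signals of 22810 probe-sets, controls included, so that no probe-set filter shows in the table. The study kept fewer probe-sets after its filter. Shares and ranks given here therefore include probe-sets that the study left out. Samples were grouped by title. Signals were set to at least 1, though none was lower, and transformed to log2. Counts leave out 64 control probe-sets. Limma would need a spread between replicates, which proportional columns do not hold, so that no test was run. The calculation was run on simulated proportional columns without noise, which checks its arithmetic only.

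The genes, lists and rules were chosen with earlier results of these data known. Named are the 6 members, genes that border the repeat, the 2 highest and 2 lowest of each list and the 2 nearest differences. The rule for these included the genomic DNA signal, which was not used here. Plastid probe-sets were those with 1 symbol found among papaya plastid genes and a Gene ID from 844704 to 844806. A probe-set counts as above the bacterial controls if its replicate 3 signal exceeded 8.24 in both stages. No sequences are shown, since no sequence table was used here. The fold threshold was the fold change the study used together with a p-value, here without one, and a difference counted as past it above 0.32 on the log2 scale. Alternatives were median centring, quantile normalization, scaling to hybridization controls, 16 added to signals, ratios of mean linear signals, no floor and leaving out each column. With 1 independent value per stage and probe-set, no precision can be given. Python 3.11.15, numpy 2.4.6, pandas 2.3.3 and matplotlib 3.10.9 were used.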

Additional observations from a re-analysis of the deposited data

How the results depend on the processing

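A difference was taken as moved when it shifted by more than 0.13, the median SD of log2 signals over the deposited columns of a stage. This SD reflects only the constant factor between columns and measures no spread between replicates. Leaving out a column therefore could not count as moving a member. After quantile normalization rpl2 was at -0.29, rpl23 at -0.59, rps7 at 0.093, the bright rps12 at 0.017 and the median of the 6 probe-sets at 0.047, with 1 of the 6 lower past the fold threshold. Scaled to bioB, bioC and bioD, rpl2 was at -0.031, rpl23 at -0.65, ndhB at 2.04, rps7 at 0.44, the dim rps12 at 0.66, the bright rps12 at 0.31 and the median at 0.38. Under that scaling 3 of the 6 were higher and 1 lower past it, and of all probe-sets 21525 were higher and 8 lower. With 16 added, ndhB was at 0.87, and 17 of all probe-sets were higher and 30 lower, against 812 and 804 as deposited. Scaled to cre, 1359 were higher and 487 lower. Among probe-sets brighter than the bacterial controls in both stages, 103 were higher and 119 lower.

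Leaving out 1 column gave -0.70 to -0.57 for rpl2, -1.31 to -1.19 for rpl23, 1.37 to 1.50 for ndhB, -0.23 to -0.10 for rps7, -0.0037 to 0.12 for the dim rps12, -0.35 to -0.23 for the bright rps12 and -0.29 to -0.16 for their median. It gave 2 to 3 lower members and 1 higher. Counts over all probe-sets were 418 to 1498 higher and 433 to 1569 lower; without replicate 1 of unripe pulp they were 418 and 1569, without replicate 2 of ripe pulp 427 and 1528, without replicate 2 of unripe pulp 1478 and 445, and without replicate 1 of ripe pulp 1498 and 433. Since the columns of a stage are proportional, leaving out a given column shifted every probe-set by the same fixed amount. These ranges and counts therefore follow from the constant factor and do not measure how stable a gene is. Median centring, scaling to cre, mean linear signals and no floor left every member on its side of 0 and of the threshold. No paired analysis was possible because the columns of a stage are proportional and hold no spread between replicates. The comparison of pulp with genomic DNA was not run. Dim signals limit the dim rps12, which is not above the bacterial controls.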

Other observations

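The papaya annotation also lists mitochondrial genes named rps7, rps12 and rpl2. On the array 3 further probe-sets carry one of these symbols together with a second locus and were left unnamed. The one with rps12 gave 61.2 unripe and 70.3 ripe, the one with rpl2 18.7 and 16.2, and the one with rps7 13.1 and 18.4. Their log2 differences were 0.20, -0.21 and 0.50. Whether RNA of such genes adds to the signals of the plastid probe-sets was not tested.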
